A study of Mus musculus with 9 samples.

Results

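The mouse collagen gene family was followed through reprogramming. Its members were taken by name, as every gene whose whole symbol reads Col, digits, a, digits, and each was represented by the array row that maps to exactly 1 symbol and has the highest mean over the 9 arrays. This gave 44 genes of the 19937 genes measured, which are all 44 collagen symbols in the GRCm38.p6 gene table. Col6a5 and Col6a6 had a second, lower row each, and the other members had 1.

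Total RNA of 9 cell samples was hybridised to whole-transcript arrays, and the deposited values are on a log2 scale, so a difference of 1 is 2-fold. All samples are labelled with the strain OG2-GFP/Rosa26-M2rtTA (a green fluorescent reporter and the doxycycline-responsive transactivator, driven from the Rosa26 locus) and belong to a secondary system for induction of Tet1, Sox2, Klf4 and c-Myc (TSKM). There were 3 arrays of fibroblasts at passage 4 from TSKM-iPS mice, 3 of such fibroblasts given doxycycline for 3 days (labelled TSKM-3D, here day 3), and 3 of an induced pluripotent stem (iPS) cell line at passages 10 to 15. For the day-3 samples the medium, too, was switched, to that of embryonic stem cells with LIF, so their comparison with fibroblasts covers the medium and the factors together. The iPS cells alone grew on mitomycin-treated mouse embryonic fibroblasts, and the protocol clears such feeders from stem cells by a brief plating before RNA was taken. No sort of the day-3 cultures is described, and the iPS samples are named as a single line. Nothing in the labels ties the arrays of a group to separate cultures or animals. The p-values therefore rest on array-to-array spread, which may be technical.

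Collagens are trimers of alpha chains wound into a triple helix, each chain encoded by its own gene. Fibrillar collagens form the load-bearing fibres of connective tissue, type IV collagens form the network of basement membranes, type VI collagens form beaded microfibrils around cells, and further classes attach to fibrils, anchor epithelia or span the cell membrane. Fibroblasts are a main source of fibrillar and type VI collagen, and mouse reprogramming takes such cells into an epithelial-like pluripotent state.

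The labels were checked against marker genes. Of 8 fibroblast markers, 7 were lower at day 3 than in fibroblasts and 8 were lower in iPS cells than in fibroblasts, and all 9 pluripotency markers were higher in iPS cells than in either other group. The mean log2 level of the fibroblast markers lay between 8.97 and 9.07 on day-3 arrays and between 7.92 and 8.01 on iPS arrays, against 11.61 to 11.63 on fibroblast arrays. Of the introduced factors, Sox2 and Myc were called higher at day 3, and Klf4 differed by 0.04. Tet1 was 1.13 lower on the log2 scale (level 6.97 at day 3, 8.10 in fibroblasts). The Klf4 and Tet1 rows thus did not show the induction that the label names. Whether these rows read the introduced copies was not tested. The cell type label of the third fibroblast array is that of the induced day-3 cells, while the title, source and passage of the array are those of fibroblasts. Over all genes it correlated at 0.998 with each of the other fibroblast arrays (Pearson's r) against 0.951 to 0.955 with those of day 3. It was kept with the fibroblasts by its title, and counts are given with and without it. Over all rows, the median of an array was 6.01 to 6.23. Signal over background was not in the file, so the true size of a change that ends near the lower quartile of the rows (4.54 to 4.76) is uncertain.

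Between day 3 and fibroblasts, 5 of the 44 collagens were called, 3 higher and 2 lower, where a call means a Benjamini-Hochberg adjusted p under 0.05 over all genes in limma together with a change of at least 2-fold. This is 11.4% of the family, against 10.8% of all genes called in that comparison, 3.25% higher and 7.58% lower, so the share of collagens that changed was near the background. The members moved in opposite directions: the 3 chains called higher were Col4a5, Col4a6 and Col28a1, and the 2 called lower were the type VI chains Col6a2 and Col6a3. Without the third fibroblast array the counts were again 3 higher and 2 lower. With that array placed among the day-3 arrays, as its cell type label reads, none was called (0 higher, 0 lower). The 15 collagens called in at least 1 of the 3 comparisons (27.4% of all genes were) are described by class below, after the sequences upstream of 5 type IV and type VI collagen genes.

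**Figure D1:**
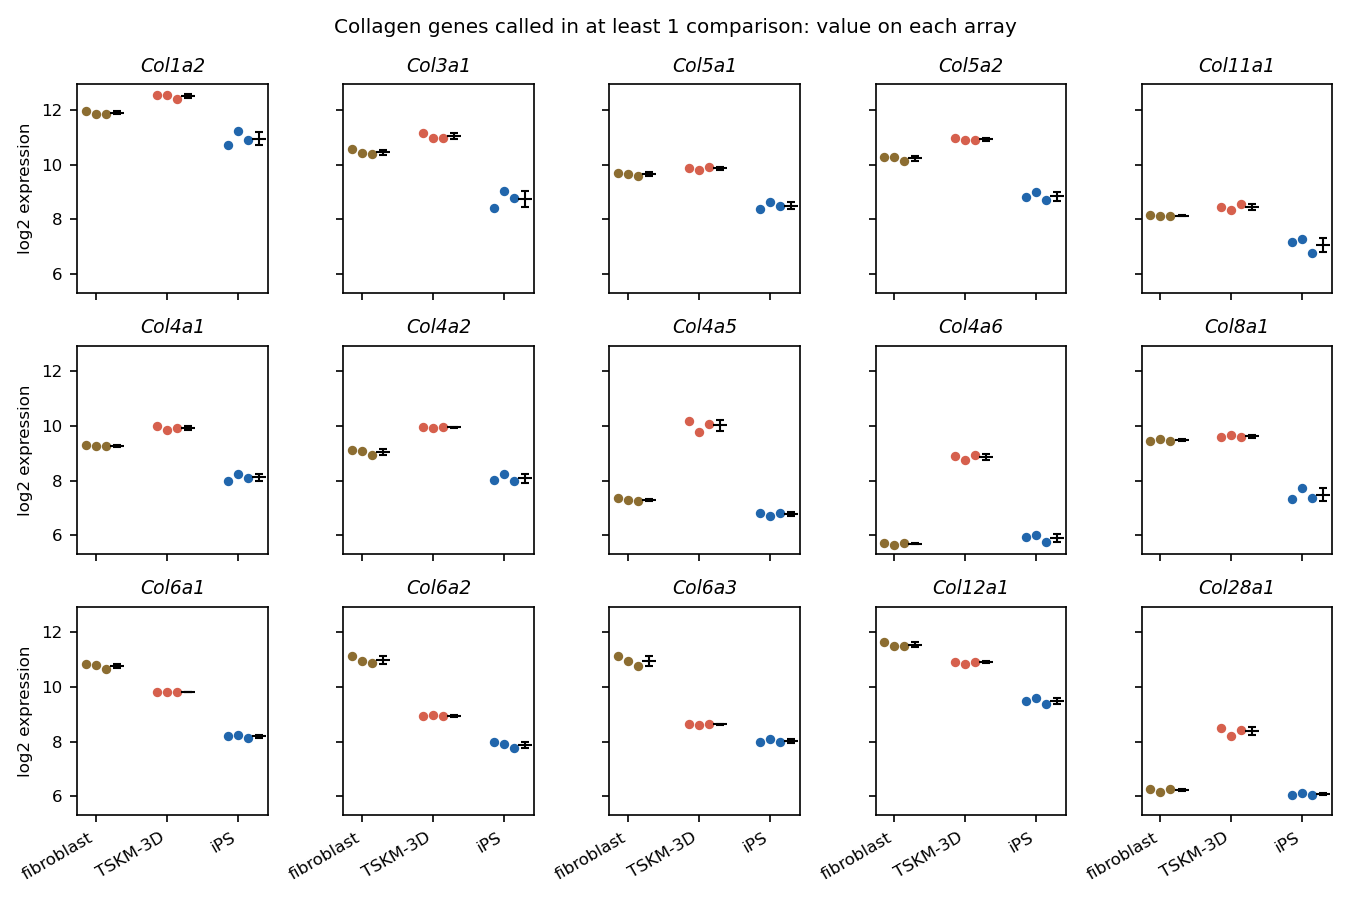
Log2 expression (vertical axis) of the 15 called collagen genes on each array, for fibroblasts, day 3 (TSKM-3D) and iPS cells, with points for the 3 arrays of a group and a black bar with whiskers for their mean and SD. Col4a5, Col4a6 and Col28a1 stand high only on the day-3 arrays, Col6a2 and Col6a3 are already lower at day 3, and the fibrillar and Col4a1 and Col4a2 genes are lowest on the iPS arrays.

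The stretches from 250 to 51 bases before the annotated transcript start (RefSeq, GRCm38.p6; 200 bases each, read 5′ to 3′ on the gene's own strand) are shown for the basement membrane chains Col4a5 and Col4a6, which were higher at day 3, and for the 3 type VI chains of the Col6a1 to Col6a3 trimer, which were lower in iPS cells. None of these stretches overlaps an annotated gene. Capitals mark matches, on either strand, to any of 5 motifs: the GC box GGGCGG, the CCAAT box CCAAT, the MYC E-box CACGTG, the SOX core AACAAT and the KLF4 core GGGTGTG. None of the 5 motifs overlaps another within these stretches.
Col4a5 (chrX:141475169-141475368, plus strand): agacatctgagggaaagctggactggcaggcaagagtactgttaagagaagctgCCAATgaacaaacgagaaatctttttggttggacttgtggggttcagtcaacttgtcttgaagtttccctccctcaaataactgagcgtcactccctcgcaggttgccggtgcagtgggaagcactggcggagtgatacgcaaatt
Col4a6 (chrX:141474127-141474326, minus strand): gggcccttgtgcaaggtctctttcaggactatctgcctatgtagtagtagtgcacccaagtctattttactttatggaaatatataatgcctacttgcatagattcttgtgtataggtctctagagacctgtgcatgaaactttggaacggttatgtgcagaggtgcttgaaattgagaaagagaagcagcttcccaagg
Col6a1 (chr10:76726095-76726294, minus strand): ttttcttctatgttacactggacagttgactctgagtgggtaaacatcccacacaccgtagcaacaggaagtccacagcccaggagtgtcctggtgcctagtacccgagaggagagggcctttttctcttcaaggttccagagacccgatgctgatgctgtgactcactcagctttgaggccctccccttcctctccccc
Col6a2 (chr10:76623681-76623880, minus strand): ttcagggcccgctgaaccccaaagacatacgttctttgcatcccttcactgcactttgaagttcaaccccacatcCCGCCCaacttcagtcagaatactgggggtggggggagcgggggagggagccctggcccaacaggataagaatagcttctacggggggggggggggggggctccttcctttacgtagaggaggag
Col6a3 (chr1:90844022-90844221, minus strand): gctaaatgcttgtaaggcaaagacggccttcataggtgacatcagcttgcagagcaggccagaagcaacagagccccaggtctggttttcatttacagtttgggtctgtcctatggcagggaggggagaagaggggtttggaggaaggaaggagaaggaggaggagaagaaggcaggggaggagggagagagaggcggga

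Only a CCAAT box upstream of Col4a5 and a GC box upstream of Col6a2 were matched in these 5 stretches. The base composition ran from 42.5% G and C upstream of Col4a6 to 59.5% upstream of Col6a2, against a median of 51.5% over 32851 promoter windows of the same length. Over all those windows the CCAAT box was found in 28.4%, the GC box in 24.6%, the SOX core in 7.96%, the KLF4 core in 5.46% and the MYC E-box in 4.34%. Among the 38 windows listed for 35 collagen genes, the counts were 10, 18, 1, 2 and 0 in that order of motifs. The letters of a motif are a description of these windows and not a site of binding.

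Among the basement membrane chains, Col4a5 and Col4a6 were the members that differed most between day 3 and fibroblasts. These chains sit together in the basement membranes of skin and smooth muscle, and in the gene table they are neighbours on opposite strands of the X chromosome. Col4a5 read 7.34, 7.27 and 7.25 in fibroblasts, 10.19, 9.79 and 10.08 at day 3 and 6.83, 6.69 and 6.80 in iPS cells. The day-3 arrays lay above all others, and the iPS arrays lay below the fibroblast arrays. Col4a5 thus rose 6.64-fold at day 3 against fibroblasts (log2 difference 2.73 ± 0.10 SE, n = 3 arrays per group here and below; limma adjusted p = 3.69e-09), and was 9.5-fold lower in iPS cells than at day 3 (-3.25 ± 0.10; adjusted p = 3.65e-10). Against fibroblasts, the iPS level of Col4a5 differed by -0.52 ± 0.10 (adjusted p = 0.00092), short of 2-fold. Col4a6 read 5.70, 5.65 and 5.70 in fibroblasts, 8.89, 8.75 and 8.94 at day 3 and 5.93, 6.02 and 5.73 in iPS cells. Again the day-3 arrays stood apart from the other groups, whose values lay near or under the array medians. The day-3 level was 9.04-fold above that of fibroblasts (3.18 ± 0.09; adjusted p = 7.45e-10), and the iPS level was 7.81-fold below that of day 3 (-2.96 ± 0.09; adjusted p = 3.1e-10), while iPS and fibroblast levels differed by 0.21 ± 0.09 (adjusted p = 0.067).

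Col4a1 and Col4a2, the chains of the type IV collagen found in nearly every basement membrane and direct neighbours on chromosome 8, were not called at day 3. Col4a1 read 9.30, 9.25 and 9.25 in fibroblasts, 10.002, 9.86 and 9.92 at day 3 and 7.99, 8.25 and 8.11 in iPS cells. Col4a2 read 9.13, 9.08 and 8.93 in fibroblasts, 9.94, 9.92 and 9.96 at day 3 and 8.01, 8.25 and 7.97 in iPS cells. For both genes the 3 groups did not overlap, with day 3 highest and iPS lowest. At day 3 Col4a1 differed from fibroblasts by 0.66 ± 0.08 (adjusted p = 4.42e-05) and Col4a2 by 0.89 ± 0.09 (adjusted p = 7.4e-06), under the 2-fold line. Quantile normalization put Col4a2 at 1.06 there, past it. In iPS cells against day 3 both fell, Col4a1 3.51-fold (-1.81 ± 0.08) and Col4a2 3.65-fold (-1.87 ± 0.09). Col4a3 and Col4a4, the chains that join Col4a5 in the kidney filter, were not called in any comparison and lay between 5.76 and 6.41 on all arrays.

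Within an array, the Col4a6 row gained on the Col4a5 row by 0.45 ± 0.08 (SE, n = 3) in log2 ratio at day 3 against fibroblasts, and the Col4a2 row on the Col4a1 row by 0.23 ± 0.06. Both changes lie outside the spread of the arrays, but 3 arrays against 3 allow no two-sided exact permutation p under 0.1, the value both reached (adjusted p = 0.11 over 21 such ratios). None of the 8 primitive and parietal endoderm markers, a cell type rich in type IV collagen, was called higher at day 3, and Gata6 and Thbd were lower. Of 5 smooth muscle markers 0 were higher at day 3 and 2 were lower, Cnn1 (-1.37) and Actg2 (-1.09). Of 5 keratinocyte markers 0 were called, and their mean level was 5.31 to 5.77 at day 3, against 5.39 to 5.46 in fibroblasts.

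Col28a1 encodes a chain with von Willebrand A domains, known in mouse from peripheral nerve, and was the third collagen that stood high only at day 3. It read 6.27, 6.17 and 6.25 in fibroblasts, 8.49, 8.21 and 8.44 at day 3 and 6.06, 6.12 and 6.06 in iPS cells. The day-3 arrays were 4.43-fold above fibroblasts (2.15 ± 0.09; adjusted p = 6.47e-09), and iPS cells were 4.92-fold below day 3 (-2.30 ± 0.09; adjusted p = 1.41e-09). The iPS and fibroblast levels differed by -0.15 ± 0.09 (adjusted p = 0.169; 95% interval -0.34 to 0.04). Of 3 Schwann cell markers measured, 0 were called at day 3, with Sox10 at 5.98 against 6.17 in fibroblasts. The pattern of higher at day 3, then lower in iPS cells, with no call between iPS cells and fibroblasts, held for these 3 collagens, and for 1.02% of all genes.

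The chains of the usual type VI collagen trimer, Col6a1, Col6a2 and Col6a3, moved the other way at day 3. They had their highest mean in fibroblasts and their lowest in iPS cells, and Col6a2 alone was called lower at both steps. Col6a2 read 11.15, 10.96 and 10.87 in fibroblasts, 8.93, 8.99 and 8.93 at day 3 and 7.98, 7.92 and 7.76 in iPS cells. Col6a3 read 11.13, 10.95 and 10.76 in fibroblasts, 8.64, 8.61 and 8.64 at day 3 and 7.98, 8.09 and 7.99 in iPS cells. Neither gene overlapped between any 2 groups. At day 3 Col6a2 was 4.11-fold below fibroblasts (-2.04 ± 0.09; adjusted p = 1.2e-08) and Col6a3 was 4.99-fold below them (-2.32 ± 0.09; adjusted p = 7.16e-09). From there the iPS level of Col6a2 was a further 2.09-fold lower (-1.06 ± 0.09), whereas that of Col6a3 differed by -0.61 ± 0.09, short of a call. Without the third iPS array, Col6a2 fell just short of 2-fold in that step and was not called, and a limma test against 2-fold did not call it either. Over the whole course the iPS levels were 8.6-fold (Col6a2) and 7.61-fold (Col6a3) below fibroblasts.

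Col6a1, the gene next to Col6a2 on chromosome 10, was called in iPS cells but not at day 3. It read 10.84, 10.79 and 10.68 in fibroblasts, 9.84 on each of the day-3 arrays and 8.22, 8.25 and 8.14 in iPS cells. At day 3 it differed from fibroblasts by -0.93 ± 0.07 (adjusted p = 9.42e-07), just under 2-fold, and in iPS cells it was 3.1-fold below day 3 (-1.63 ± 0.07). The exact tie of the 3 day-3 values, and ties of 2 day-3 values for Col6a2 and Col6a3, may hide part of the spread, so these p-values may be too low. The within-array ratios of these rows had changes other than 0, but with 3 against 3 arrays no permutation test of them could pass 0.05. The same ties may make the SE of these ratios too small. At day 3 against fibroblasts the log2 ratio of the Col6a2 row to the Col6a1 row changed by -1.11 ± 0.05 (SE). That of the Col6a3 row to the Col6a1 row changed by -1.38 ± 0.06. Between iPS cells and day 3 these ratios changed by 0.57 ± 0.04 and 1.02 ± 0.03. The exact two-sided permutation p was 0.1 for each, the smallest that 3 against 3 arrays allow (adjusted p = 0.11 over 21 ratios). Col6a4, Col6a5 and Col6a6 can stand in for the Col6a3 chain in mouse and lie side by side on chromosome 9. They differed from fibroblasts at day 3 by 0.67, 0.61 and 0.32 and were not called (limma adjusted p = 0.0037, 0.0023 and 0.051). For each, the day-3 arrays lay above the fibroblast arrays.

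Fibrillar collagens were not called at day 3, 0 of 11, where 10.8% of all genes were called. With 11 genes, a count of 0 is not far from that share. In iPS cells against day 3, 5 of 11 were lower and the basement membrane class had 4 of 6, against 8.57% of all genes called lower. Col1a1 and Col1a2 encode the chains of type I collagen, the main fibre of skin and bone. Col1a1 read 12.36, 12.15 and 12.10 in fibroblasts, 12.33, 12.38 and 12.23 at day 3 and 11.20, 11.71 and 11.48 in iPS cells. Fibroblast and day-3 values overlapped, with a difference of 0.11 (95% interval -0.16 to 0.38), and the iPS arrays all lay below both, with a difference from day 3 of -0.85 ± 0.12 (adjusted p = 0.000112), under 2-fold. Col1a2 read 11.98, 11.87 and 11.86 in fibroblasts, 12.55, 12.56 and 12.42 at day 3 and 10.74, 11.22 and 10.91 in iPS cells. Its day-3 arrays lay above the fibroblast arrays (0.60 ± 0.11; adjusted p = 0.000881), and its iPS level was 2.94-fold below day 3 (-1.56 ± 0.11; adjusted p = 3.08e-07). Against fibroblasts, Col1a2 in iPS cells differed by -0.95, not called, but by -1.08 and called without the second iPS array.

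Col3a1, the chain of type III collagen, and Col5a2, a chain of the type V collagen that starts and limits fibril growth, are neighbours on chromosome 1 and had like profiles. Col3a1 read 10.56, 10.43 and 10.39 in fibroblasts, 11.17, 10.99 and 10.99 at day 3 and 8.43, 9.02 and 8.80 in iPS cells. Col5a2 read 10.30, 10.27 and 10.12 in fibroblasts, 10.99, 10.89 and 10.90 at day 3 and 8.84, 9.01 and 8.69 in iPS cells. For each, day 3 was highest and iPS lowest, with no overlap. The day-3 differences from fibroblasts were 0.59 ± 0.13 for Col3a1 and 0.69 ± 0.09 for Col5a2, under 2-fold, and the iPS levels were 4.92-fold (Col3a1) and 4.23-fold (Col5a2) below day 3 (adjusted p = 4.15e-08 and 5.67e-09). Col5a1, the other main type V chain, read 9.71, 9.67 and 9.58 in fibroblasts, 9.89, 9.81 and 9.91 at day 3 and 8.36, 8.65 and 8.50 in iPS cells. Col11a1, a minor fibril chain best known from cartilage, read 8.14, 8.13 and 8.13 in fibroblasts, 8.46, 8.33 and 8.56 at day 3 and 7.16, 7.26 and 6.77 in iPS cells. Both were called lower in iPS cells than at day 3, Col5a1 by -1.37 and Col11a1 by -1.38. The remaining fibrillar genes, Col2a1, Col5a3, Col11a2, Col24a1 and Col27a1, were called in no comparison.

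**Figure D2:**
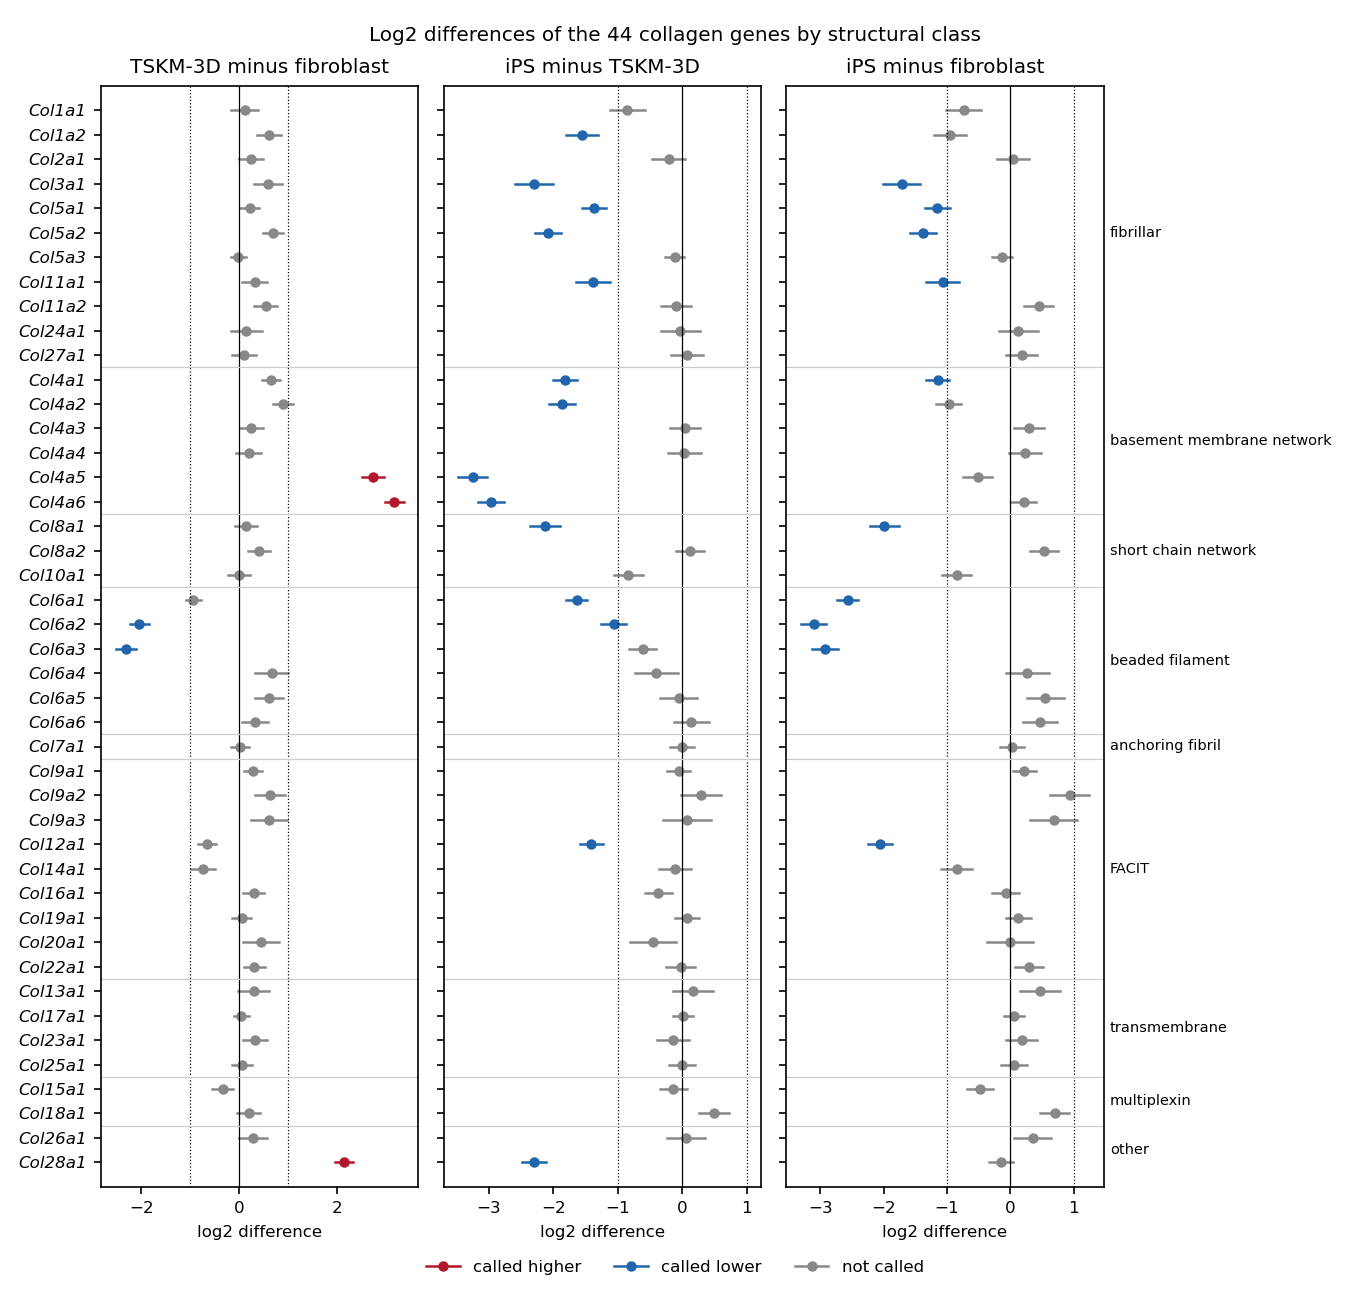
Log2 differences (horizontal axes) of all 44 collagen genes, ordered by structural class, for day 3 (TSKM-3D) minus fibroblasts, iPS minus day 3 and iPS minus fibroblasts. Points are estimates with 95% intervals from limma, dotted lines mark 2-fold, and calls are coloured; 3 genes are called higher and 2 lower in the left panel, 14 lower in the middle panel and 10 lower in the right panel.

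Between iPS cells and day 3, 14 collagens were lower and 0 higher, 31.8% of the family against 15.1% of all genes called, 8.57% lower and 6.48% higher. The 14 comprised 5 fibrillar genes, the 4 type IV genes Col4a1, Col4a2, Col4a5 and Col4a6, Col6a1, Col6a2, Col8a1, Col12a1 and Col28a1. Every collagen called in any comparison except Col6a3 was thus among them. With no fold requirement 20 passed, 1 higher (Col18a1) and 19 lower, against 45.6% of all genes. Without the third fibroblast array the count was 14 lower. The iPS and day-3 values did not overlap for 21 of 44, against 49.5% of all genes. The median collagen differed by -0.14, against -0.01 for the median gene.

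Col8a1 and Col12a1 completed the genes lower in iPS cells. Col8a1, a short chain that forms hexagonal networks beneath endothelium, read 9.46, 9.52 and 9.44 in fibroblasts, 9.59, 9.67 and 9.58 at day 3 and 7.34, 7.74 and 7.38 in iPS cells. The fibroblast and day-3 levels were within 0.14 of each other, and the iPS level was 4.37-fold below day 3 (-2.13 ± 0.10; adjusted p = 1.15e-08). Col12a1, which decorates type I fibrils, read 11.66, 11.49 and 11.51 in fibroblasts, 10.93, 10.86 and 10.93 at day 3 and 9.50, 9.61 and 9.39 in iPS cells. Its levels stepped down without overlap, by a difference of -0.65 ± 0.08 at day 3 (adjusted p = 4.91e-05, not called) and of -1.41 ± 0.08 in iPS cells against day 3 (adjusted p = 5.56e-08, called).

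Between iPS cells and fibroblasts, 10 collagens were lower and 0 higher, 22.7% of the family against 21.5% of all genes called, 13.8% lower and 7.63% higher. The largest falls were those of Col6a2 (-3.10 ± 0.09; adjusted p = 1.29e-10), Col6a3 (-2.93 ± 0.09; adjusted p = 2.55e-10) and Col6a1 (-2.57 ± 0.07; adjusted p = 1.14e-10). They were followed by Col12a1 at -2.06, Col8a1 at -1.99, Col3a1 at -1.71 and Col5a2 at -1.38. Col5a1 (-1.15), Col4a1 (-1.15) and Col11a1 (-1.07) lay nearest the line on the called side and were not called after quantile normalization (-0.99, -0.98 and -0.98), nor by a limma test against 2-fold, and Col11a1 was not called without the third iPS array (-0.92). On the other side of the line lay Col4a2, at -0.97, which was called without the third fibroblast array (-1.03) or the second iPS array (-1.06). With array medians set equal, which lowered the median gene as well, 14 collagens were lower: Col4a2 (-1.14), Col1a2 (-1.12), Col10a1 (-1.02) and Col14a1 (-1.02) were then called too. Without the third fibroblast array 11 collagens were lower. With no fold requirement 29 of 44 passed, against 54.6% of all genes, and iPS and fibroblast values did not overlap for 36 of 44, against 65% of all genes.

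Of these 10 genes, 2 had been called lower at day 3 (Col6a2 and Col6a3) and 8 had not. Of all genes, 13.8% were lower in iPS cells against fibroblasts. The pattern of Col6a2, lower in all 3 comparisons, held for 1.13% of all genes, and that of Col6a3 for 4.18%. The pattern of the other 8, not called at day 3 and lower in both iPS comparisons, held for 4.79% of all genes. Of the 8 collagens, 2 had a day-3 mean below that of fibroblasts (Col6a1 and Col12a1) and 6 had a day-3 mean above it (Col3a1, Col4a1, Col5a1, Col5a2, Col8a1 and Col11a1). For Col5a1 and Col8a1 the day-3 difference had a limma adjusted p over 0.05 (0.062 and 0.305). The comparisons share their fibroblast, day-3 and iPS arrays, so they are not independent of each other. In bulk RNA, fewer cells that make a collagen and less of its RNA per cell cannot be told apart.

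The iPS arrays still read well above their medians for several collagens, 11.47 ± 0.25 for Col1a1, 10.96 ± 0.24 for Col1a2 and 9.50 ± 0.11 for Col12a1 (log2 level, mean ± SD, n = 3). Some fibroblast markers were also readable there: Postn averaged 10.20 in iPS cells, against 10.49 at day 3, and Dcn averaged 8.53, against 7.07 at day 3, whereas Lum stood at 4.48 and Pdgfra at 6.51. The part of feeder fibroblasts in these readings was not tested. Among the 15 called collagens the second iPS array was the highest of its group for 13 (86.7%), against 32.7% of all genes. The fibroblast markers had no common order on those arrays, with Dcn at 8.70, 8.58 and 8.30 and Pdgfra at 6.41, 6.62 and 6.50.

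The 29 collagens called in no comparison included Col1a1, described above, and 28 genes with group means between 5.60 and 8.81. Of the 29, 11 were above and 2 below their fibroblast level at day 3 with an adjusted p under 0.05 but less than 2-fold, and these are among the 20 higher and 6 lower obtained over all 44 members when no fold is required (44.6% of all genes pass in either direction). The day-3 differences of the 29 ran from -0.74 (Col14a1, a fibril-associated chain) to 0.67 (Col6a4). Over all members the median was 0.28, against 0.05 for the median gene, and day-3 and fibroblast values did not overlap for 32 of 44, 72.7%, against 53.1% of all genes.

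Within the day-3 group, the uncalled genes shared an order of arrays. Whether that order bears on the differences from fibroblasts was not tested. Among the 29, the second day-3 array was the highest of its group for 26 and the third the lowest for 28, against 44.8% and 38.5% of all genes. The medians of the 3 day-3 arrays over all rows followed the same order, 6.08, 6.20 and 6.01. The lower quartile of all rows was 4.67, 4.73 and 4.61 on those arrays, against 4.54 to 4.55 on fibroblast arrays. With array medians set equal, the median collagen difference at day 3 was 0.23, and after quantile normalization it was 0.35.

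**Figure D3:**
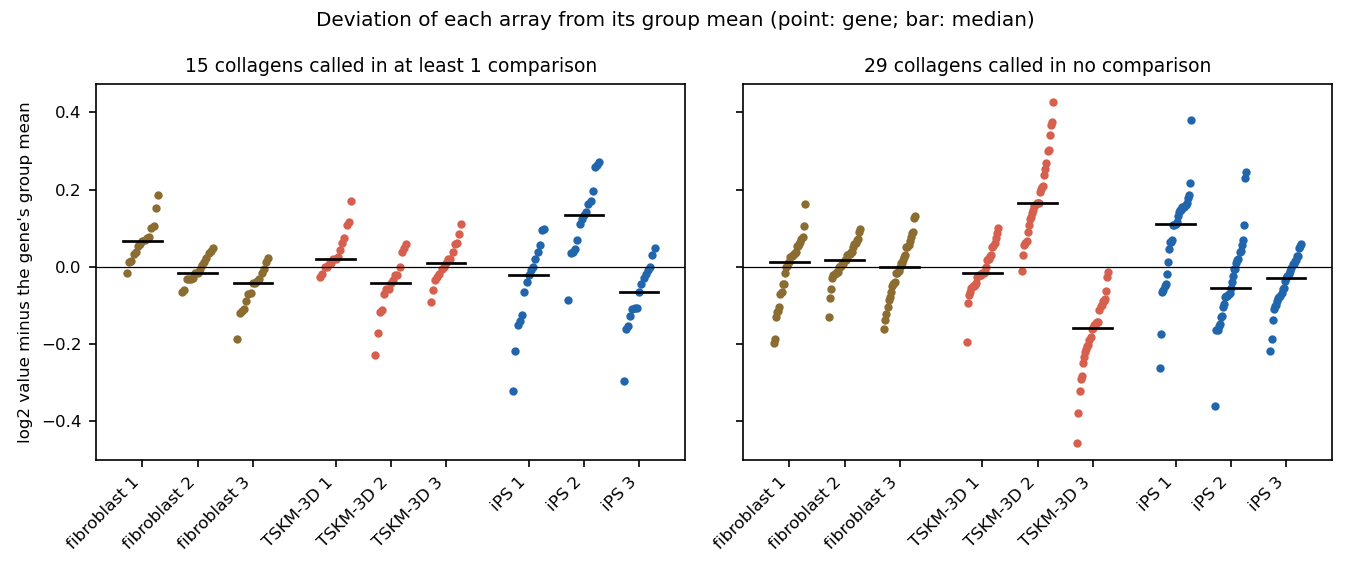
Log2 value minus the gene's own group mean (vertical axis) on each of the 9 arrays, for the 15 collagens called in at least 1 comparison (left) and the 29 called in none (right); points are genes and black bars are medians. Among the uncalled genes the second day-3 array lies above and the third below the group mean for nearly every gene, 26 highest and 28 lowest of 29.

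Several of the uncalled genes have known homes in other tissues, and they give values for those. Col2a1, the cartilage fibril chain, lay between 7.61 and 8.17 on all arrays. The chains that coat cartilage fibrils, Col9a1, Col9a2 and Col9a3, differed between iPS cells and fibroblasts by 0.22, 0.93 and 0.68. Col9a2 read 7.97, 8.04 and 8.04 in iPS cells, against 7.04, 7.06 and 7.15 in fibroblasts, and was called higher after quantile normalization (1.02). Of 6 chondrocyte markers 0 were called higher in iPS cells, and Sox9 was lower (-2.83). Col10a1, which marks the swollen chondrocytes of growth plates, read 6.07, 6.20 and 6.13 in iPS cells, against 7.04, 6.99 and 6.92 in fibroblasts (-0.85 ± 0.10, not called, but -1.02 and called with array medians set equal).

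Chains of skin attachment were called in no comparison. Col7a1, which anchors basement membrane to dermis, read 7.52 on all 3 fibroblast arrays and differed by at most 0.02 between group means of day 3 or iPS cells and fibroblasts. Col17a1, a membrane-spanning chain of hemidesmosomes, lay between 6.31 and 6.44. The other membrane-spanning chains, Col13a1, Col23a1 and Col25a1, were called nowhere. Of the multiplexins, which release antiangiogenic fragments, Col18a1 read 8.64, 9.05 and 8.76 in iPS cells, against 8.28, 8.45 and 8.23 at day 3 (0.50 ± 0.11; adjusted p = 0.00202), and Col15a1 differed from its fibroblast level by -0.34 at day 3 and by -0.48 in iPS cells. The fibril-associated chains Col16a1, Col19a1, Col20a1 and Col22a1 and the unclassed Col26a1 differed by at most 0.46 in size in any comparison, and Col8a2, the partner of Col8a1, was 0.53 higher in iPS cells than in fibroblasts, not called.

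The genes that fold, export, trim, cross-link, bind and degrade collagen were taken from a list of 57 genes, of which 53 were measured by rows with 1 symbol. The list was chosen with earlier results of these data known, so its shares here and below are descriptions of the listed genes. At day 3 against fibroblasts 19 of the 53 were lower and 0 higher, 35.8% against 7.58% of all genes called lower, and their median difference was -0.69, where that of the collagens was 0.28 and that of all genes 0.05. Cross-linking enzymes had the most calls for their number, 4 lower of 5: the lysyl oxidase Lox at -2.44 (level 10.11 at day 3, 12.55 in fibroblasts), Loxl3 at -2.19, Loxl4 at -1.89 and Loxl1 at -1.58. Of 17 folding and modification genes 5 were lower, among them the prolyl hydroxylase subunit P4ha3 (-4.33), the lysyl hydroxylases Plod1 (-1.65) and Plod3 (-1.28), the prolyl hydroxylase P3h3 (-1.33) and the collagen chaperone Serpinh1 (-1.09). P4ha1, P4hb and Plod2, which belong to the same machinery, differed by -0.28, -0.06 and -0.27.

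Of 7 secretion genes 3 were lower at day 3, the transcription factors Creb3l1 (-2.40) and Creb3l2 (-2.01), which drive secretory genes in collagen-making cells, and the coat protein Sec23a (-1.27). Bmp1, which removes the C-terminal propeptide, was the 1 gene of 7 in propeptide processing called lower (-1.65). Tll1, Pcolce and Adamts14 of that list differed by -0.82, -0.71 and -0.53, under 2-fold. Of 10 receptors, Itga11, the alpha chain of a collagen-binding integrin, was lower by a difference of -2.98 and Adgrg1 of -1.14. Ddr2, a receptor kinase for fibrillar collagen, differed by -0.26 at day 3. Of 7 degradation genes 4 were lower, Mmp9 (-2.08), the lysosomal protease Ctsk (-1.84), the collagenase Mmp13 (-1.80) and the gelatinase Mmp2 (-1.14). All of these calls had a limma adjusted p of at most 1.6e-05.

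In iPS cells more of the partner genes were called. Against day 3, 21 of 53 were lower (39.6%, against 8.57% of all genes) and 2 higher (3.77%, against 6.48% of all genes). Against fibroblasts 33 of 53 were lower and 0 higher, 62.3% against 13.8% of all genes called lower. Against fibroblasts the median difference was -1.37, with P4ha3 at -5.20, Itga11 at -4.11, Loxl3 at -3.78, Creb3l1 at -3.47 and Serpinh1 at -2.63. The 2 genes higher in iPS cells than at day 3 were Adgrg1 (1.19) and Mmp13 (1.08). Ddr2 (-2.72), P3h4 (-2.59), Tll1 (-2.58) and Mrc2 (-2.48), the endocytic collagen receptor, were among those called lower between iPS cells and day 3 that had not been called at day 3. Colgalt1 (-0.57), P4hb (-0.22) and Pcolce2 (0.24) differed by less than 2-fold between iPS cells and fibroblasts.

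**Figure D4:**
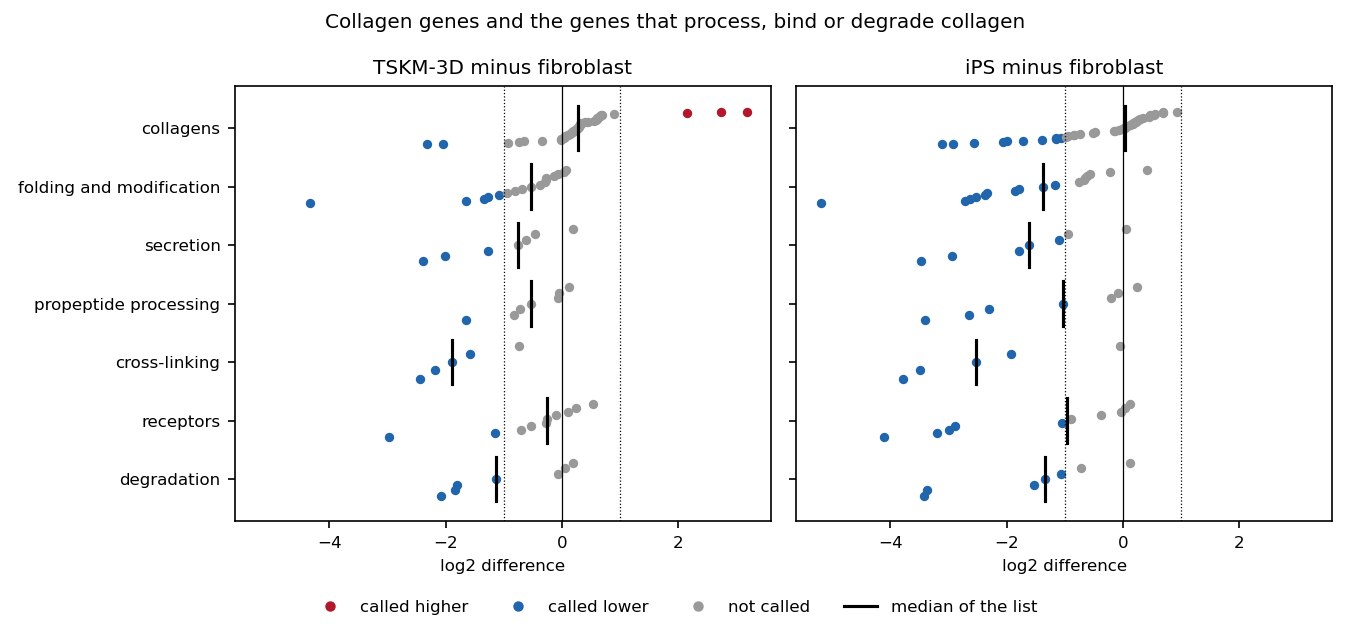
Log2 differences (horizontal axes) of the 44 collagens and of 53 partner genes in 6 functional lists, for day 3 (TSKM-3D) minus fibroblasts (left) and iPS minus fibroblasts (right). Points are genes coloured by call, dotted lines mark 2-fold and black bars are list medians; at day 3 the collagen median is 0.28 and the cross-linking median is -1.89.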

How the data were processed

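The authors deposited log2 expression values for 34760 array rows on 9 Affymetrix arrays; how they were normalized is not given in the sources used here, and they were used as deposited. Gene symbols came from the platform annotation: 21640 rows had 1 symbol, 1321 had several and were not used, and 11799 were not listed. Symbols of 21553 rows were found in RefSeq's GRCm38.p6 table, which served for names, neighbours and promoter sequence.

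A single limma 3.58.1 model (R 4.3.3; moderated by eBayes, without covariates) covered all 19937 genes and the 3 groups, and p-values were Benjamini-Hochberg adjusted over all genes. A call needed an adjusted p under 0.05 and a change of at least 2-fold. The fit was tested on simulated data. Ratios of 2 rows within an array were compared with exact two-sided permutation tests (scipy 1.17.1). Per-array values are printed for members called in at least 1 comparison. Partner genes called at day 3 are all named, while of those called in the iPS comparisons only some are. The per-array values of Col1a1, Col9a2, Col10a1 and Col18a1, and the names P4hb, Colgalt1 and Pcolce2, were added after their values were seen. Markers and lists are in log2 means. The number of arrays limits the precision. The members and lists were chosen with earlier results of these data known. Alternatives were scaling, row choice, call rule, prior, a replicate block, array placement and leaving out each array.

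No pairing of the samples by the replicate numbers in the titles was seen. Deviations of same-numbered arrays from their group means correlated between -0.10 and 0.06 over all genes, and those of different-numbered arrays between -0.13 and 0.13. With 3 arrays per group, such correlations cannot exclude a pairing.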

Additional observations from a re-analysis of the deposited data

How the results depend on the processing

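The counts of collagens lower and higher in each comparison moved by over 1.5 times under 3 of the alternatives. With no fold requirement, day 3 against fibroblasts had 20 higher and 6 lower, iPS against day 3 had 1 higher, and iPS against fibroblasts had 12 higher and 17 lower. With the third fibroblast array placed among the day-3 arrays, day 3 against fibroblasts had 0 higher and 0 lower, and the 5 genes had adjusted p = 0.165 in limma; the placement itself puts unlike values in 1 group. After quantile normalization iPS against fibroblasts had 1 higher; the cause was not tested. Leaving out each array in turn gave 3 higher and 2 lower at day 3 against fibroblasts every time, 13 to 14 lower in iPS against day 3 and 9 to 12 lower in iPS against fibroblasts. The replicate block left the counts at 3 and 2, 0 and 14, and 0 and 10. Since no pairing by number was seen, the block says nothing more. With array medians set equal, the median gene stood at -0.13 (as deposited -0.01) in iPS against day 3 and at -0.12 (as deposited 0.05) in iPS against fibroblasts, and the median collagen at -0.26 and -0.14. At day 3 against fibroblasts the median collagen stood at 0.23 with medians set equal and 0.35 after quantile normalization (as deposited 0.28), with the median gene at -0.0029 and -0.0022. No collagen called in a comparison changed sign under any alternative. Dim rows have no measured background here, which limits the size of changes that start or end low.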

Other observations

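Among the 15 called collagens the first fibroblast array was the highest of its group for 14 (93.3%), against 35.5% of all genes, and the third the lowest for 10 (66.7%), against 34.7%. Exactly equal values on 2 or 3 arrays of a group occurred for 14 of the 44 collagens, and Col7a1 read the same on all 3 fibroblast arrays.

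Of the 6 chondrocyte, 4 osteoblast, 6 endothelial and 4 adipocyte markers measured, those called at day 3 against fibroblasts were Sox9 (-2.84), Phex (3.17), Pparg (-1.31) and Fabp4 (-1.35). Phex, a peptidase gene of bone-forming cells, read 7.56 at day 3, against 4.39 in fibroblasts, and 4.53 in iPS cells, while Sp7, Ibsp and Dmp1 of the same list differed by 0.03, 0.39 and 0.40 at day 3. Of 9 macrophage markers 3 were lower at day 3 (Lyz2 at -4.01, Cd53 at -2.91 and C1qb at -1.63), with a mean list level of 5.51 to 5.57 at day 3, against 6.70 to 6.79 in fibroblasts; their part in the collagen differences was not tested. The second rows of Col6a5 and Col6a6 differed by 0.15 and 0.01 at day 3 and were not tested on their own. The kept rows differed more, by 0.61 and 0.32, and were not called.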
